A study of Mus musculus with 4 samples.

Results

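The cells of the brown adipose tissue (BAT) stromal vascular fraction (SVF) of mice on a high-fat diet (HFD) were compared with those of wild-type (WT) mice on normal diet. All barcodes of both libraries that held over 250 but under 6000 genes, more than 500 but under 30000 UMIs and mitochondrial UMIs below 15% were taken, which gave 5462 barcodes in HFD and 5944 in WT. These 11406 barcodes were part of 28887 in the 4 libraries of the series. A UMI is a tag that counts 1 captured RNA molecule. Each barcode was then assigned to a lineage by its raw UMIs: macrophage by C1qa, C1qb and C1qc, stromal by Col1a1, Col3a1 and Dcn, and endothelial by Cdh5, Cldn5 and Gpihbp1. A lineage needed at least 3 UMIs over its 3 genes and at least 3 times the UMIs of each other lineage.

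The study asked how obesity changes the cells of BAT. The SVF is what remains of the tissue after digestion once the lipid-filled adipocytes are removed, and the WT and HFD libraries were each a pool of SVF from 3 male C57BL6/J mice. WT mice were 10 weeks old and ate normal diet. The labels give 10 weeks as the age of the HFD mice too. The methods of the study, however, start the high-fat diet at 10 weeks of age and feed it for 10 weeks. The age of the HFD mice at harvest is therefore not settled. If they were older than the WT mice, diet and age cannot be told apart. Libraries of leptin receptor mutant db/db mice at 8 and at 16 weeks are used below only for context. With 1 library a side, no spread between mice could be measured and no p-value was computed. Intervals are 95% intervals and cover counting error only, so an HFD difference cannot be told apart from a difference between these pools or their preparation.

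Brown adipose tissue burns lipid to make heat and is densely supplied with capillaries, whose endothelium releases fatty acids from lipoproteins and passes them to adipocytes. Its stroma holds fibroblast-like progenitors that build the matrix and can become adipocytes. Its macrophages include perivascular macrophages (PVMs), which line vessels and carry scavenger receptors such as LYVE1 and CD163, and in obesity lipid-associated macrophages (LAMs), which take up and digest lipid through receptors, fatty acid-binding proteins and lysosomal enzymes.

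The libraries held 8318 barcodes in WT and 17440 in HFD before filtering, with 51357400 and 57279299 UMIs. The filter kept 71.5% of WT and 31.3% of HFD barcodes, and the mitochondrial limit alone removed 1615 and 11948. The kept barcodes had medians of 6218.5 and 5066 UMIs and of 4.29% and 10.5% mitochondrial UMIs. Of the barcode sequences, 37 occurred in both libraries. Scrublet ranks placed 7.37% of WT and 14.2% of HFD barcodes among the predicted doublets, which were kept. These rates were set in advance, at 0.8% per 1000 barcodes before filtering, and are not measured. The gated lineages carried their own independent markers: Adgre1, Csf1r, Cd68, Fcgr1 and Mertk together stood at 1690 CPM in WT and 2236 CPM in HFD macrophages, where CPM is the UMIs of a gene per 1000000 UMIs summed over a library's barcodes of 1 lineage. The gate gene C1qa itself was at 4452 CPM in WT and 1791 CPM in HFD macrophages. Over all kept barcodes the log2 ratios of HFD to WT were -0.27 for C1qa, 0.61 for C1qb and 0.36 for C1qc. For the stromal gate genes they were -2.12 (Col1a1), -0.17 (Col3a1) and -1.83 (Dcn). The stromal markers outside the gate (Pdgfra, Pdgfrb, Lum, Col6a1 and Serpinf1) together had a ratio of -0.59. The gate may therefore not have selected alike in both libraries.

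The 3 lineages made up very different shares of both libraries. Stromal barcodes were 4447 of 5944 in WT (74.8%) and 1793 of 5462 in HFD (32.8%), a difference of -42.0 percentage points (-43.6 to -40.3). Endothelial barcodes were 7 in WT (0.118%) and 1323 in HFD (24.2%), a difference of 24.1 percentage points (23.0 to 25.3). Macrophages were 1138 in WT (19.1%) and 1481 in HFD (27.1%), a difference of 7.97 percentage points (6.41 to 9.53). The remaining barcodes, those with markers of more than 1 lineage and those with none, were 2.84% and 3.08% of WT and 6.83% and 9.01% of HFD.

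**Figure D1:**
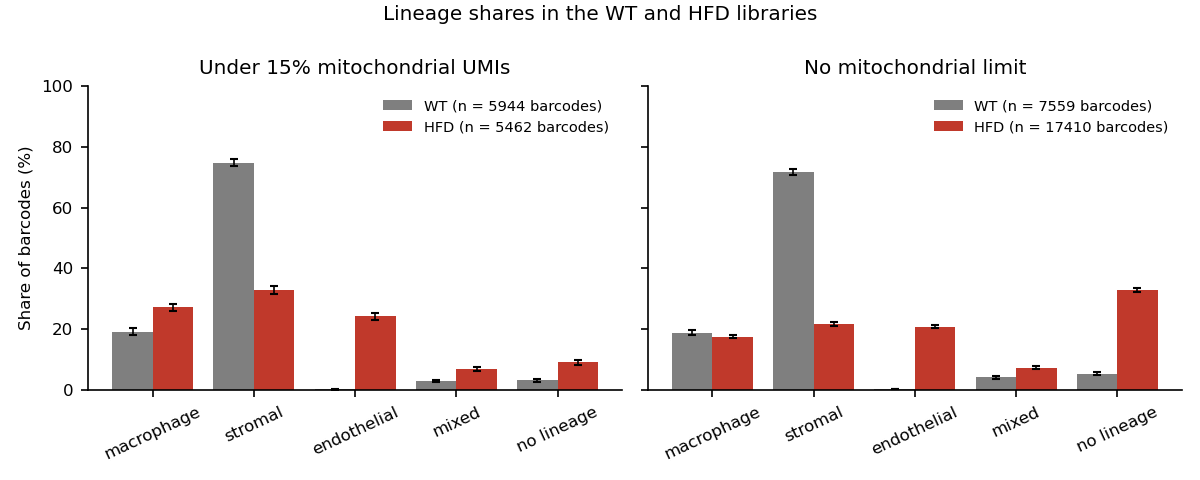
Share of barcodes (y axis, percent) in each lineage, with markers of more than 1 lineage (mixed) or of no lineage, in the WT and HFD libraries, 1 library each, with the 15% mitochondrial limit (left) and without it (right), and with exact binomial 95% intervals. On the left the stromal bar is at 74.8% in WT and 32.8% in HFD and the endothelial bar at 0.118% and 24.2%.

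As shares add up to a whole, the macrophage share was also taken over macrophage and stromal barcodes alone. It was 20.4% in WT (19.3 to 21.5) and 45.2% in HFD (43.5 to 47.0), which is 0.256 and 0.826 macrophages per stromal barcode. The mitochondrial limit bears on these shares. It kept 80.0% of macrophage and 82.1% of stromal barcodes in WT, but 48.7% and 47.6% in HFD, 36.5% of HFD endothelial barcodes and 8.61% of 5713 HFD barcodes with no lineage. Without it the macrophage share of all barcodes was lower in HFD than in WT by 1.36 percentage points, whereas the share among macrophage and stromal barcodes was 20.8% in WT and 44.6% in HFD.

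Most endothelial genes followed the same pattern over all kept barcodes, without any gate. Pecam1, which encodes the junction protein CD31, was at 2.82 CPM in WT and 271 CPM in HFD. Kdr, the main receptor for vascular endothelial growth factor, was at 3.22 and 223 CPM. The independent endothelial markers Pecam1, Kdr, Egfl7, Esam and Tie1 together were at 8.44 CPM in WT and 787 CPM in HFD (log2 ratio 6.54, 6.40 to 6.69). The WT library thus held almost no RNA of these independent markers. Some members of the wider endothelial lists were lower in HFD instead: Tek (126 and 67.4 CPM), Ramp2 (266 and 124 CPM), Ackr1 (34.4 and 3.59 CPM) and Fbln5 (235 and 90.4 CPM), WT before HFD. As 7 barcodes are too few for a profile, no HFD to WT ratio was formed within endothelial barcodes. Markers of mural cells, the pericytes and smooth muscle cells around vessels, were likewise at 4.18 CPM in WT and 307 CPM in HFD.

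Next, gene levels were compared within macrophages. Among 3296 genes at 50 CPM or more in either library, 526 (16%) were at least 2-fold higher in HFD and 427 (13%) at least 2-fold lower. The median log2 ratio of all these genes was 0.23, and relative to that median 327 were higher and 559 lower. At the lower level of 20 CPM, which is used for the gene lists below, 910 of 6098 genes (14.9%) were at least 2-fold higher and 682 (11.2%) lower.

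Gene positions below are those of build GRCm38. Genes of PVMs were lower in HFD macrophages. Of 15 perivascular macrophage genes at 20 CPM or more, 12 were at least 2-fold lower in HFD and 0 higher, with a median log2 ratio of -3.85. Lyve1 (protein-coding, chromosome 7, 110850607 to 110863239, minus strand), the hyaluronan receptor that marks these cells, was at 984 CPM in WT and 8.48 CPM in HFD (log2 ratio -6.86, 95% interval -7.17 to -6.56). Fcna (protein-coding, chromosome 2, 25624666 to 25628030, minus strand), which encodes ficolin A, a lectin of the complement system, was at 1208 CPM in WT and 15.6 CPM in HFD (log2 ratio -6.28, 95% interval -6.50 to -6.06). Timd4, a receptor for phosphatidylserine on dying cells, was at 52.3 CPM in WT and 0.737 CPM in HFD (log2 ratio -6.15). The hemoglobin scavenger receptor gene Cd163 was at 632 CPM in WT and 42.1 CPM in HFD (log2 ratio -3.91), and the coagulation factor XIII gene F13a1 at 1708 CPM in WT and 118 CPM in HFD (log2 ratio -3.85). C-type lectin receptor genes of the Cd209 cluster were lower together: Cd209b (222 and 1.84 CPM), Cd209d (313 and 2.77 CPM), Cd209f (649.7 and 9.96 CPM) and Cd209g (213 and 2.77 CPM, in WT and HFD each). The difference was not uniform over the list. Folr2, a folate receptor, was at 1114 CPM in WT and 278 CPM in HFD (log2 ratio -2.00), and the mannose receptor gene Mrc1, which most tissue macrophages carry, was at 1028 CPM in WT and 596 CPM in HFD (log2 ratio -0.78), short of 2-fold. Ltc4s, the synthase of leukotriene C4, stood outside the list and was at 569 CPM in WT and 11.7 CPM in HFD (log2 ratio -5.60).

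Genes of lipid handling and lysosomes were higher in HFD macrophages. Of 22 such genes, 20 were at least 2-fold higher and 0 lower, with a median log2 ratio of 2.62, and their summed level was 24461 CPM in WT and 50088 CPM in HFD. The study picked several of these genes as LAM markers on these libraries, so the list is not independent evidence of its direction. Gpnmb (protein-coding, chromosome 6, 49036546 to 49070929, plus strand), a transmembrane glycoprotein of lysosome-rich macrophages, was at 11.3 CPM in WT and 1551 CPM in HFD (log2 ratio 7.10, 95% interval 6.80 to 7.42). Mmp12 (protein-coding, chromosome 9, 7344381 to 7369499, plus strand), the macrophage elastase, was at 21.1 CPM in WT and 1240.2 CPM in HFD (log2 ratio 5.88, 95% interval 5.66 to 6.11). Trem2, a lipid-sensing receptor of LAMs, was at 123 CPM in WT and 1229 CPM in HFD (log2 ratio 3.32, 95% interval 3.23 to 3.42). The list spans the course of a lipid particle through the cell. For release and uptake, Lpl, the lipoprotein lipase, was at 284 CPM in WT and 3784 CPM in HFD (log2 ratio 3.74), and Cd36, the fatty acid translocase, at 763 CPM in WT and 3217 CPM in HFD (log2 ratio 2.08). For transport within the cell, the fatty acid-binding protein gene Fabp5 was at 68.9 CPM in WT and 1448 CPM in HFD (log2 ratio 4.39). For digestion in the lysosome, the acid lipase gene Lipa was at 183 CPM in WT and 1193 CPM in HFD (log2 ratio 2.70) and the cathepsin gene Ctsk at 13.4 CPM in WT and 300.4 CPM in HFD (log2 ratio 4.49). Lgals3, a galectin that marks damaged lysosomes, was at 476 CPM in WT and 6986 CPM in HFD (log2 ratio 3.88). The exceptions were the cathepsin gene Ctsb, with a log2 ratio of 0.26, and Apoe, which encodes the lipoprotein that carries cholesterol out of cells, at 13546 CPM in WT and 7438 CPM in HFD (log2 ratio -0.86).

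Other genes among the 12 highest in HFD macrophages included surface receptors and enzymes. Itgax, the integrin subunit CD11c, was at 1.69 CPM in WT and 189 CPM in HFD (log2 ratio 6.80, 95% interval 6.03 to 7.72). Il7r, the receptor chain for interleukin 7, was at 4.03 CPM in WT and 335 CPM in HFD (log2 ratio 6.38, 95% interval 5.87 to 6.94). Cd9, a tetraspanin that the study used as a LAM marker, was at 7.28 CPM in WT and 356 CPM in HFD (log2 ratio 5.61, 95% interval 5.23 to 6.02), while stromal barcodes held 177 and 231 CPM of it. Atp6v0d2, a subunit of the proton pump that acidifies lysosomes, was at 16.6 CPM in WT and 559 CPM in HFD (log2 ratio 5.07, 95% interval 4.82 to 5.33). All of these were almost absent from WT macrophages, with levels under 20 CPM. The adhesion molecule gene Cadm1 (2.34 and 129 CPM), the ubiquitin ligase gene Rnf128 (1.43 and 89.3 CPM), the helicase gene Zranb3 (0.780 and 74.9 CPM), the kinase gene Cdk18 (0.780 and 52.6 CPM), the dehydrogenase gene Dhrs9 (1.30 and 57.0 CPM) and the coagulation factor VII gene F7 (3.38 and 114 CPM) completed them, with WT before HFD.

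**Figure D2:**
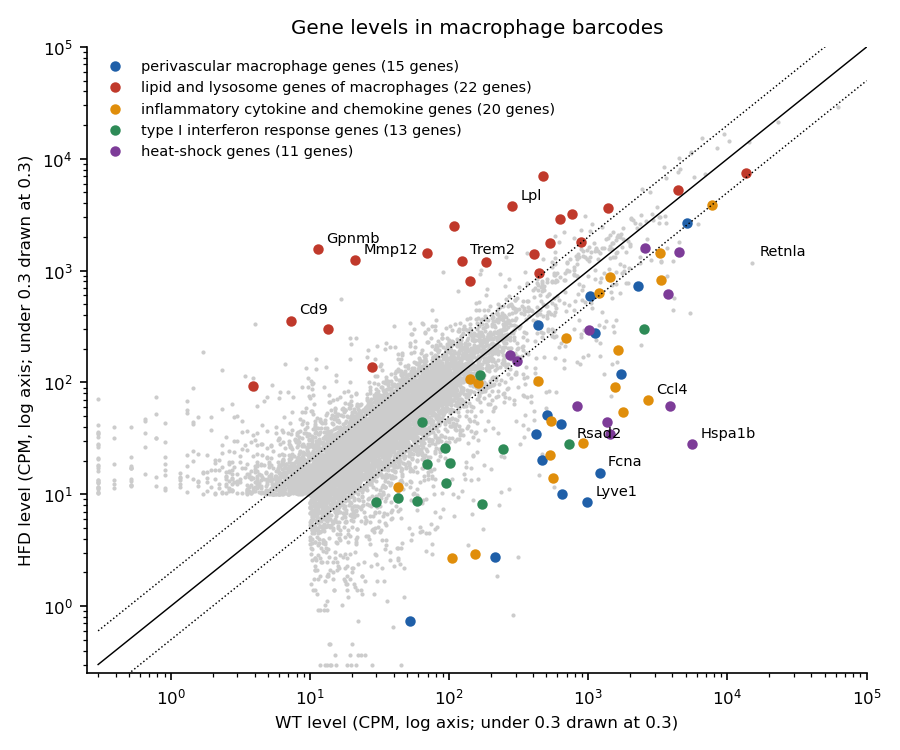
Summed level of each gene in WT macrophages (x axis, CPM) and HFD macrophages (y axis, CPM), both on log axes, for genes at 10 CPM or more in either, with the line of equal levels (solid), 2-fold lines (dotted) and list members in colour. Perivascular macrophage genes such as Lyve1 (984 and 8.48 CPM) lie under the lower line and lipid and lysosome genes such as Gpnmb (11.3 and 1551 CPM) over the upper one.

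Beyond levels summed over barcodes, the share of macrophages with a UMI of a gene was compared after each barcode was thinned to 1000 UMIs, which left out 9 WT and 0 HFD macrophages. Lyve1 was held by 49.8% of WT macrophages (46.8 to 52.7) and 0.608% of HFD macrophages (0.278 to 1.15). In stromal barcodes, which should lack it, the shares were 0.624% and 0.223%. Trem2 was held by 9.92% of WT and 52.8% of HFD macrophages, against 0.231% and 5.47% of stromal barcodes. Mmp12 was held by 0.266% and 28.2%, against 0.139% and 7.54% of stromal barcodes, while without thinning the macrophage shares were 0.703% and 60.0%. The median depth was 5581 UMIs in WT and 5889 UMIs in HFD macrophages and 6883 and 5158 UMIs in stromal barcodes. Gpnmb was a special case, since in WT it was held by more stromal barcodes (12.9%) than macrophages (0.886%), and in HFD by 16.6% and 36.3%.

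Both gene groups were then read in the same barcodes. The perivascular set (Lyve1, Folr2, F13a1, Cd163, Fcna and Cd209f) and the lipid set (Gpnmb, Mmp12, Trem2, Cd9, Lgals3 and Fabp5) were picked after their levels were seen, so their counts are a description. With at least 2 of 1000 UMIs as the limit for each set, 78.4% of WT macrophages (75.9 to 80.8) held the perivascular set alone and 2.66% (1.80 to 3.77) the lipid set alone. In HFD these shares were 2.90% (2.11 to 3.89) and 75.7% (73.4 to 77.9). Macrophages with both sets were 6.55% of WT and 7.63% of HFD, and those with neither 12.4% and 13.8%. The classes are ranges and not types: barcodes with 1 or 2 UMIs, near the limit, were 16.9% of WT and 24.4% of HFD macrophages for the perivascular set, and 29.5% and 18.3% for the lipid set.

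**Figure D3:**
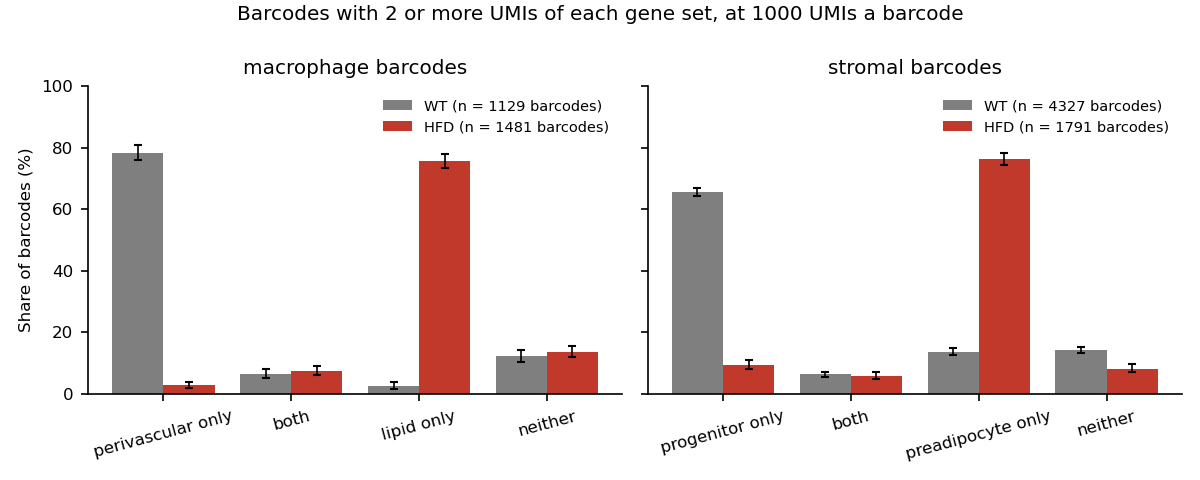
Share of barcodes (percent, with exact binomial 95% intervals) that held at least 2 of 1000 thinned UMIs of 1 gene set, of both or of neither, for macrophages (perivascular and lipid sets) and stromal barcodes (progenitor and preadipocyte sets) in WT and HFD, 1 library each. In macrophages the perivascular-only class goes from 78.4% to 2.90%, and the class with both sets stays small, at 6.55% and 7.63%.

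Inflammatory genes were lower in HFD macrophages. Of 20 cytokine and chemokine genes, 15 were at least 2-fold lower and 0 higher, with a median log2 ratio of -2.58. Ccl4, a chemokine for monocytes and T cells, was at 2683 CPM in WT and 69.3 CPM in HFD (log2 ratio -5.27, 95% interval -5.38 to -5.17). Il1b, the precursor of interleukin 1β, was at 1635 CPM in WT and 195 CPM in HFD (log2 ratio -3.07), and Tnf, tumor necrosis factor, at 433 CPM in WT and 102 CPM in HFD (log2 ratio -2.08). Il6 was at 153 CPM in WT and 2.95 CPM in HFD (log2 ratio -5.69). The monocyte chemokine genes Ccl2 (1566 and 91.9 CPM), Ccl7 (923 and 28.7 CPM) and Ccl8 (1764 and 54.4 CPM) were lower as well, as was Ptgs2, the inducible cyclooxygenase, at 532 CPM in WT and 22.3 CPM in HFD (log2 ratio -4.58). The share of macrophages with a UMI of Il1b was 21.3% in WT and 14.7% in HFD after thinning, against 1.87% and 3.02% of stromal barcodes. Without thinning it was 29.9% and 31.7%, the opposite order, so no direction is read from these shares. Genes of alternative activation did not move the opposite way. Of 6 measured, 4 were at least 2-fold lower and 1 higher: the resistin-like gene Retnla was at 14907 CPM in WT and 1177 CPM in HFD (log2 ratio -3.66), the lectin gene Clec10a at 1485 CPM in WT and 147 CPM in HFD (log2 ratio -3.34) and the anti-inflammatory cytokine gene Il10 at 408 CPM in WT and 46.2 CPM in HFD (log2 ratio -3.14), whereas the inhibitory receptor gene Cd200r1 was at 50.3 CPM in WT and 107 CPM in HFD (log2 ratio 1.09).

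Genes induced by type I interferon, the antiviral cytokine family, were lower in HFD macrophages. Of 13 measured, 11 were at least 2-fold lower and 0 higher, with a median log2 ratio of -2.40, and their summed level was 4378 CPM in WT and 631 CPM in HFD. Rsad2, which encodes the antiviral enzyme viperin, was at 723 CPM in WT and 28.2 CPM in HFD (log2 ratio -4.68, 95% interval -4.85 to -4.51). Ifit1, which binds foreign RNA, was at 172 CPM in WT and 8.11 CPM in HFD (log2 ratio -4.41, 95% interval -4.73 to -4.09). Isg15, a ubiquitin-like modifier, was at 243 CPM in WT and 25.4 CPM in HFD (log2 ratio -3.25). Cxcl10, an interferon-induced chemokine of the inflammatory list, was at 553 CPM in WT and 14.0 CPM in HFD (log2 ratio -5.30). Promoters of 3 of these genes are shown from RefSeq (build GRCm38.p6, from 250 bases before the start of the gene to 50 after it, read on the strand of the gene) because they move together and each holds the interferon-stimulated response element. The capitals mark GAAA followed, after 2 bases of any kind, by GAAA, in either strand, and overlapping matches run into 1 stretch. The promoters are Ifit1 at chr19:34640639-34640938 (plus strand), Isg15 at chr4:156200769-156201068 (minus strand) and Rsad2 at chr12:26456403-26456702 (minus strand).
Ifit1: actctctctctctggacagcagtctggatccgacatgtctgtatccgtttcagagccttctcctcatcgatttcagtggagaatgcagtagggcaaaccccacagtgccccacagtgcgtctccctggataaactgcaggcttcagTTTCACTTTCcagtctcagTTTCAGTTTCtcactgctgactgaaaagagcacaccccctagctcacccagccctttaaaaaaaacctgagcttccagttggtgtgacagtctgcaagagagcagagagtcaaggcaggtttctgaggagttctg
Isg15: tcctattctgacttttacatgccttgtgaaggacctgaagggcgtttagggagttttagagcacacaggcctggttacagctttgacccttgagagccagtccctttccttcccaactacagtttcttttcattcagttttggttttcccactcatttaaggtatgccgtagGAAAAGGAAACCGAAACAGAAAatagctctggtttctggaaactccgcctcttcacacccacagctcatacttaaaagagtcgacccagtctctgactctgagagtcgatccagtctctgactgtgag
Rsad2: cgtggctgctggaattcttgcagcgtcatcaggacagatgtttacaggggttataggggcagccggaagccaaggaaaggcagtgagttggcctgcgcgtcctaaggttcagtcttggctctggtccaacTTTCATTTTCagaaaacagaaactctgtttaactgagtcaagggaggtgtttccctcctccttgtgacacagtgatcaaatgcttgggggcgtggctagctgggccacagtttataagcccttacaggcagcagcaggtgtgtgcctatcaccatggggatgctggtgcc
The element occurred in 5 of the 10 promoters that the table holds for interferon response genes and in 3.44% of all 32851 promoters. A match of letters does not show that a factor was bound.

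Antigen presentation differed between both classes of MHC. Of 8 MHC class I genes, 3 were at least 2-fold lower in HFD macrophages and 0 higher (median log2 ratio -0.88). Class II, which presents peptides to helper T cells, had a summed level of 14467 CPM in WT and 17438 CPM in HFD and a median log2 ratio of 0.44, which was -0.073 with a mitochondrial limit of 10%. Here 2 of 7 genes were at least 2-fold higher, Ciita, the master regulator of the class (35.9 CPM in WT and 87.5 CPM in HFD (log2 ratio 1.28)), and H2-DMb1, which helps load peptides (122 CPM in WT and 254 CPM in HFD (log2 ratio 1.06)). H2-Aa, a chain of the class II molecule itself, was at 3125 CPM in WT and 3731 CPM in HFD (log2 ratio 0.26). After thinning it was held by 55.0% of WT and 84.3% of HFD macrophages, and by 4.37% and 18.5% of stromal barcodes.

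Metabolic genes differed list by list in HFD macrophages. Of 12 glycolysis genes, 6 were at least 2-fold higher, among them Gapdh (164 CPM in WT and 529 CPM in HFD (log2 ratio 1.69)) and Ldha, which makes lactate (101 CPM in WT and 321 CPM in HFD (log2 ratio 1.66)), and 1 was lower, the hexokinase gene Hk2 (36.2 and 18.1 CPM, WT before HFD). Of 25 nuclear genes of the respiratory chain, 7 were at least 2-fold higher and 0 lower (median log2 ratio 0.79). Cholesterol efflux genes had 3 of 10 at least 2-fold higher, led by the sterol transporter gene Abcg1 (34.7 CPM in WT and 199.9 CPM in HFD (log2 ratio 2.53)) and by Nr1h3, the oxysterol receptor LXRα (10.5 CPM in WT and 52.7 CPM in HFD (log2 ratio 2.32)), and cholesterol synthesis genes 3 of 7. Iron genes were split, with 3 of 9 higher and 4 lower: the ferritin chains Fth1 and Ftl1 had log2 ratios of 1.04 and 1.07, and Hmox1, which breaks down heme, was at 1286 CPM in WT and 119.6 CPM in HFD (log2 ratio -3.43). Receptors for the clearance of dead cells were split too, with 4 of 11 higher and 4 lower. Mfge8, a bridge to phosphatidylserine, was at 11.1 CPM in WT and 162 CPM in HFD (log2 ratio 3.87), its receptor chain Itgb5 at 11.1 CPM in WT and 133 CPM in HFD (log2 ratio 3.59), and the scavenger receptor gene Colec12 at 116 CPM in WT and 9.49 CPM in HFD (log2 ratio -3.61). Of 8 cell cycle genes 5 were at least 2-fold higher, among them Birc5 (2.81 on the log2 scale) and Mki67 (38.0 CPM in WT and 118 CPM in HFD (log2 ratio 1.64)), which was held by 2.75% of WT and 7.29% of HFD macrophages after thinning.

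In stromal barcodes the numbers of genes past 2-fold were smaller. Among 3365 genes at 50 CPM or more in either library, 362 (10.8%) were at least 2-fold higher in HFD and 342 (10.2%) lower, and at 20 CPM 731 of 6723 genes (10.9%) were higher and 545 (8.11%) lower. RNA of other lineages moved with these counts. In HFD stromal barcodes the macrophage check markers stood at 10.3% of their macrophage level, and the endothelial check markers at 6.36% of their endothelial level, while in WT the macrophage markers stood at 1.77%. Predicted doublets were 8.48% of WT and 16.7% of HFD stromal barcodes, and 1.14% and 10.2% of macrophages. Their overall rate was set in advance by the number of barcodes before filtering, which was larger in HFD, so these shares do not measure an excess of doublets in HFD. After this RNA was subtracted gene by gene, an alternative chosen after seeing the data, 197 genes were at least 2-fold higher and 434 lower.

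Matrix genes were among the highest in HFD stromal barcodes. Of 15 collagen genes outside the gate, 9 were at least 2-fold higher and 1 lower, with a median log2 ratio of 1.50 both before and after subtraction. Col8a1, a network collagen of vessel walls, had the widest ratio, at 1.82 CPM in WT and 115 CPM in HFD (log2 ratio 5.99, 95% interval 5.63 to 6.37). Basement membrane collagens were higher too, with Col15a1 at 59.0 CPM in WT and 740.4 CPM in HFD (log2 ratio 3.65, 95% interval 3.58 to 3.72), Col18a1 at 29.6 CPM in WT and 199 CPM in HFD (log2 ratio 2.75), Col4a2 at 264 CPM in WT and 1299 CPM in HFD (log2 ratio 2.30) and Col4a1 at 789 CPM in WT and 2806 CPM in HFD (log2 ratio 1.83). The fibrillar gate genes Col1a1 and Col3a1 were not part of this list. Over all kept barcodes, of which fewer were stromal in HFD, Col1a1 was at 6606 CPM in WT and 1519 CPM in HFD. Col3a1 was at 7315 and 6480 CPM. The 4 fibrillar chains of the list differed among themselves. Col5a3 was at 215 CPM in WT and 794 CPM in HFD (log2 ratio 1.89), Col5a2 at 763 CPM in WT and 1313 CPM in HFD (log2 ratio 0.78), Col5a1 at 529 CPM in WT and 673 CPM in HFD (log2 ratio 0.35) and Col1a2, a chain of collagen I, at 8691 CPM in WT and 9159 CPM in HFD (log2 ratio 0.08). Col14a1, which binds to fibrils, was the member at least 2-fold lower, at 900.4 CPM in WT and 352 CPM in HFD (log2 ratio -1.35). Matrix assembly genes differed gene by gene, with 4 of 14 collagen processing genes higher and 1 lower: the cross-linking enzyme gene Lox was at 209.8 CPM in WT and 511 CPM in HFD (log2 ratio 1.28) and the procollagen enhancer gene Pcolce2 at 719 CPM in WT and 161 CPM in HFD (log2 ratio -2.16).

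Genes of matrix proteins other than collagens were among the 12 highest in HFD stromal barcodes. Mgp (protein-coding, chromosome 6, 136872435 to 136875823, minus strand), the matrix Gla protein that blocks calcification, was at 44.0 CPM in WT and 1555 CPM in HFD (log2 ratio 5.14, 95% interval 5.07 to 5.22). Sparcl1, a matricellular protein also called hevin, was at 88.9 CPM in WT and 1542 CPM in HFD (log2 ratio 4.12, 95% interval 4.06 to 4.17). Tnc, tenascin C, which marks remodelled matrix, was at 0.559 CPM in WT and 54.8 CPM in HFD (log2 ratio 6.61, 95% interval 5.97 to 7.34). Fmod (protein-coding, chromosome 1, 134037254 to 134048277, plus strand), fibromodulin, a proteoglycan that binds collagen fibrils, had 2 UMIs in WT and 597 in HFD stromal barcodes, 0.0559 and 58.1 CPM (log2 ratio 10.02, 8.16 to 13.07). After thinning Fmod was held by 0 of 4327 WT barcodes, with 0.0852% as the upper bound of its interval, and by 5.03% of HFD barcodes. Related proteoglycan genes were higher with it, Bgn (biglycan) at 282 CPM in WT and 2231 CPM in HFD (log2 ratio 2.98) and Lum (lumican) at 451 CPM in WT and 1828 CPM in HFD (log2 ratio 2.02). Of 16 elastic fibre and matricellular genes 7 were at least 2-fold higher and 0 lower, among them Postn, periostin, at 234 CPM in WT and 865 CPM in HFD (log2 ratio 1.89). The fibulin gene Fbln7 was at 6.79 CPM in WT and 161 CPM in HFD (log2 ratio 4.56), and the inhibitor of matrix proteases Timp1 at 20.9 CPM in WT and 286 CPM in HFD (log2 ratio 3.77), whereas its relative Timp2 was at 3475 CPM in WT and 1258 CPM in HFD (log2 ratio -1.47). Further genes among the 12 highest were the sphingosine 1-phosphate receptor gene S1pr3 (1.65 and 55.5 CPM), the nitric oxide receptor subunit gene Gucy1a1 (1.90 and 52.9 CPM), Ndufa4l2 (6.37 and 95.7 CPM) and the noncoding transcripts Atcayos (0.223 and 65.6 CPM) and AI506816 (1.48 and 65.4 CPM), WT before HFD. Hbb-bs, a hemoglobin chain of red cells, also ranked among them and is described with the other genes that differed in direction. Within the stromal gate the mural markers stood at 4.39 CPM in WT and 180 CPM in HFD, and mural RNA had no subtraction of its own. The part of mural cells in the stromal ratios was not tested.

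**Figure D4:**
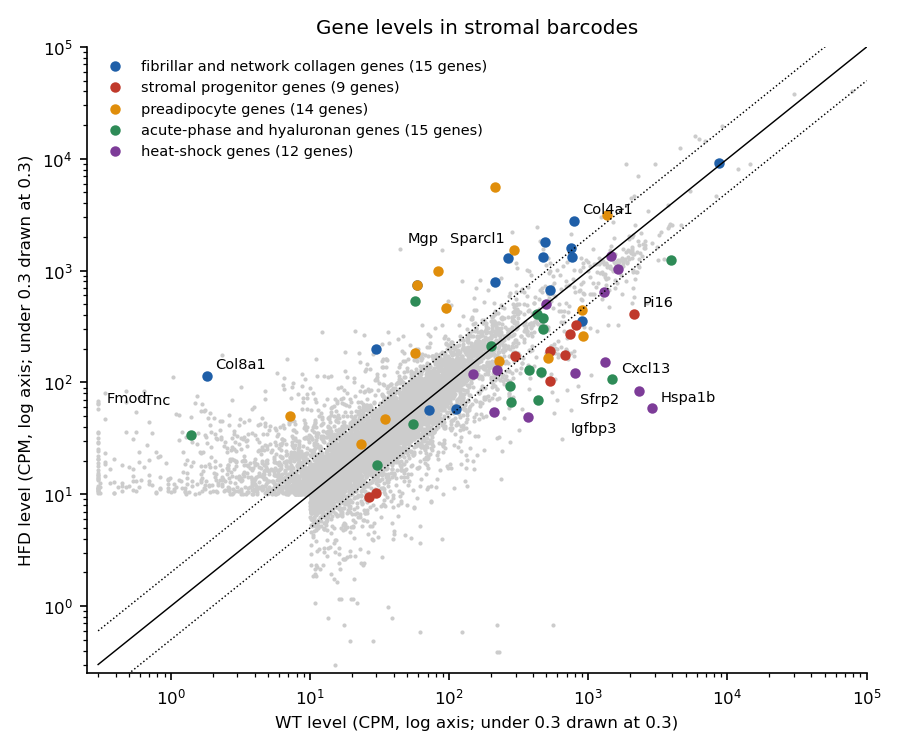
Summed level of each gene in WT stromal barcodes (x axis, CPM) and HFD stromal barcodes (y axis, CPM), both on log axes, for genes at 10 CPM or more in either, with the line of equal levels (solid), 2-fold lines (dotted) and list members in colour. Collagen genes such as Col15a1 (59.0 and 740 CPM) lie above the upper line and progenitor genes such as Pi16 (2135 and 414 CPM) below the lower one.

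Progenitor and preadipocyte genes differed in opposite directions. Pi16 and Dpp4 mark interstitial progenitors that can give rise to committed preadipocytes. Of 9 progenitor genes measured, 8 were at least 2-fold lower in HFD and 0 higher, with a median log2 ratio of -1.47. Pi16 was at 2135 CPM in WT and 414 CPM in HFD (log2 ratio -2.37, 95% interval -2.41 to -2.32) and Dpp4 at 526 CPM in WT and 104 CPM in HFD (log2 ratio -2.34, 95% interval -2.43 to -2.25). Anxa3 was at 675 CPM in WT and 175 CPM in HFD (log2 ratio -1.95) and Cd34, a marker of stem and stromal cells, at 742 CPM in WT and 273 CPM in HFD (log2 ratio -1.44). Of 14 preadipocyte genes 8 were at least 2-fold higher and 3 lower, with a median log2 ratio of 1.45, or 1.26 after subtraction. Pparg, the master regulator of adipocytes, was at 7.15 CPM in WT and 49.8 CPM in HFD (log2 ratio 2.80, 95% interval 2.58 to 3.02), although 4.58% of HFD stromal barcodes held it after thinning and 4.93% of HFD macrophages did. Fabp4 was at 213 CPM in WT and 5594 CPM in HFD (log2 ratio 4.72), but HFD endothelial barcodes held 36850.5 CPM of it. Early adipogenic factors were lower instead, Cebpb at 517 CPM in WT and 166 CPM in HFD (log2 ratio -1.64) and Cebpd at 918 CPM in WT and 261 CPM in HFD (log2 ratio -1.81).

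The same contrast appeared barcode by barcode. After thinning, Pi16 was held by 66.5% of WT stromal barcodes (65.1 to 67.9) and 14.2% of HFD stromal barcodes (12.7 to 15.9), against 10.0% and 0.608% of macrophages. Sparcl1 was held by 5.89% and 64.5%, against 0.354% and 4.73% of macrophages. Col15a1 was held by 4.51% and 44.0%, and Bgn by 14.3% and 75.2%. Sets of 5 genes were again picked after the levels were seen, with Pi16, Dpp4, Cd55, Sema3c and Anxa3 as the progenitor set and Col15a1, Mgp, Sparcl1, Col4a1 and Cxcl14 as the preadipocyte set. The progenitor set alone was held by 65.6% of WT (64.2 to 67.0) and 9.49% of HFD stromal barcodes (8.17 to 10.9). The preadipocyte set alone was held by 13.8% (12.7 to 14.8) and 76.3% (74.3 to 78.3). Barcodes with both sets were 6.42% and 5.92%. Near the limit, with 1 or 2 UMIs, were 21.4% of WT and 16.9% of HFD barcodes for the progenitor set, and 27.8% and 10.7% for the preadipocyte set.

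Genes of secreted signals differed list by list in stromal barcodes. Of 5 Wnt antagonist genes, 3 were at least 2-fold lower and 0 higher, with a summed level of 1081 CPM in WT and 195 CPM in HFD: Sfrp2 was at 756 CPM in WT and 56.6 CPM in HFD (log2 ratio -3.74, 95% interval -3.86 to -3.62), Sfrp4 at 121 CPM in WT and 24.4 CPM in HFD (log2 ratio -2.31) and Dkk2 at 61.2 CPM in WT and 5.25 CPM in HFD (log2 ratio -3.54). Of 8 genes for insulin-like growth factors and their binding proteins 4 were lower and 1 higher. Igfbp3 (protein-coding, chromosome 11, 7206086 to 7213923, minus strand), which carries the growth factor in blood, was at 646 CPM in WT and 31.1 CPM in HFD (log2 ratio -4.38, 95% interval -4.54 to -4.22), and Igfbp7, which is also made by vessels, at 512 CPM in WT and 1292 CPM in HFD (log2 ratio 1.34). Of 15 acute-phase and chemokine genes 7 were lower and 2 higher. Cxcl13, which attracts B cells, was at 1492 CPM in WT and 107 CPM in HFD (log2 ratio -3.81, 95% interval -3.89 to -3.72), and the complement gene C3 at 3942 CPM in WT and 1239.7 CPM in HFD (log2 ratio -1.67), whereas the chemokine gene Cxcl14 was at 57.1 CPM in WT and 532 CPM in HFD (log2 ratio 3.22) and the acute-phase gene Saa3 at 1.40 CPM in WT and 33.6 CPM in HFD (log2 ratio 4.59). Of the BMP genes 4 of 9 were lower and 1 higher, with Id3, a BMP target, at 1391 CPM in WT and 329 CPM in HFD (log2 ratio -2.08), its relative Id1 at 11.0 CPM in WT and 67.3 CPM in HFD (log2 ratio 2.62) and the BMP antagonist gene Chrdl1 at 241 CPM in WT and 24.4 CPM in HFD (log2 ratio -3.30). Metallothionein and glucocorticoid target genes were lower in 7 of 10 cases and higher in 1, with Mt2 at 1051 CPM in WT and 117 CPM in HFD (log2 ratio -3.17) and Mt1 at 2054 CPM in WT and 515 CPM in HFD (log2 ratio -1.99), and Sgk1 at 69.4 CPM in WT and 207 CPM in HFD (log2 ratio 1.58).

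TGF-β, the growth factor that drives fibrosis, was followed from ligand to targets. Of 15 pathway genes in stromal barcodes 3 were at least 2-fold higher and 2 lower, with a median log2 ratio of 0.21, or -0.11 after subtraction. The receptor genes Tgfbr2 (591 CPM in WT and 198 CPM in HFD (log2 ratio -1.58)) and Tgfbr3 (707 CPM in WT and 189 CPM in HFD (log2 ratio -1.90)) were lower, and the target Tagln, an actin-binding protein that mural cells also make, was at 0.698 CPM in WT and 20.2 CPM in HFD (log2 ratio 4.86). In macrophages the ligand gene Tgfb1 was at 158 CPM in WT and 266 CPM in HFD (log2 ratio 0.75, 95% interval 0.65 to 0.84), short of 2-fold, and in stromal barcodes at 17.2 CPM in WT and 73.2 CPM in HFD (log2 ratio 2.09). Macrophage check markers stood at 1.77% of their macrophage level in WT stromal barcodes and at 10.3% in HFD stromal barcodes. The part of macrophage RNA in the stromal Tgfb1 ratio was not tested. Aldh1a1, an enzyme that makes retinoic acid and that the study names, was at 113 CPM in WT and 69.0 CPM in HFD (log2 ratio -0.72) in stromal barcodes and at 3.90 and 1.94 CPM in macrophages. Of 6 retinoic acid genes measured in stromal barcodes, 3 were at least 2-fold higher and 1 lower, with a median log2 ratio of 0.98. Their list had a summed level of 1377 CPM in WT and 1795 CPM in HFD. The lower one was Aldh1a3, a relative of Aldh1a1 (138 CPM in WT and 35.8 CPM in HFD (log2 ratio -1.95)). The study measured Aldh1a1 in whole BAT and in cultured brown adipocytes, so these SVF levels are no check of its result.

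The other genes among the 12 lowest in HFD stromal barcodes included receptors, a guidance ligand, a hormone carrier and complement proteases. Il1r2, a decoy for interleukin 1, was at 236 CPM in WT and 13.8 CPM in HFD (log2 ratio -4.09), Procr, the protein C receptor, at 570.5 CPM in WT and 53.8 CPM in HFD (log2 ratio -3.41), and the axon guidance gene Sema3e at 133 CPM in WT and 11.9 CPM in HFD (log2 ratio -3.49). Cx3cr1, the fractalkine receptor, was at 88.3 CPM in WT and 3.99 CPM in HFD (log2 ratio -4.47) and the chemerin receptor gene Gpr1 at 53.4 CPM in WT and 4.08 CPM in HFD (log2 ratio -3.71). Mrgprg, a receptor of the Mas-related family, was at 222 and 0.389 CPM in WT and HFD, and Ttr, transthyretin, which carries thyroid hormone, at 61.4 and 0.583 CPM. In db/db 8w and 16w stromal barcodes Mrgprg stood at 231 and 5.07 CPM, so its level varied widely between the other libraries too. Ttr had 0 UMIs in the stromal barcodes of both db/db libraries. In WT it had 15673 UMIs over all barcodes, of which 2199 lay in stromal barcodes and 10 in macrophages, so most lay outside these lineages. The complement genes C1rb (228 and 0.389 CPM) and C1s2 (221 and 0.681 CPM) also ranked here. They are related to C1ra (346 and 230.3 CPM) and C1s1 (449 and 669 CPM), and their values are uncertain because reads may be split between the related genes. Of 50-base windows in the last 500 bases of the longest transcript, 43.2% of C1rb occurred in C1ra.

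Turning to what both lineages shared, 2350 genes reached 50 CPM in either library in both macrophages and stromal barcodes. Of these, 95 were at least 2-fold higher in HFD in both lineages, 73 lower in both and 19 differed in opposite directions. Several of the shared higher genes stood higher still in another HFD lineage. Mmp12 was at 2.32 CPM in WT and 174 CPM in HFD (log2 ratio 6.23) in stromal barcodes, which was 14.0% of its HFD macrophage level, and Trem2 at 1.76 CPM in WT and 109 CPM in HFD (log2 ratio 5.95), 8.86% of it. Atp6v0d2 was at 1.15 CPM in WT and 51.4 CPM in HFD (log2 ratio 5.49) in stromal barcodes, 9.20% of its macrophage level, and after subtraction its log2 ratio was -1.54. That value holds no direction, because 10.3% of the macrophage level was subtracted in HFD and the level left at 0 was set to 3 counts. Rgs5, a pericyte gene, was at 2.73 CPM in WT and 64.5 CPM in HFD (log2 ratio 4.56) in macrophages and 1.03 CPM in WT and 112 CPM in HFD (log2 ratio 6.76) in stromal barcodes, below its 658 CPM in HFD endothelial barcodes. Rgcc stood at 804 CPM in HFD endothelial barcodes and at 73.6 and 70.4 CPM in HFD macrophages and stromal barcodes, with log2 ratios of 3.29 and 2.70 and 0.44 after subtraction in stromal barcodes. The remaining shared genes were Fabp4, Fabp5 and Actn1, a cross-linker of actin (6.63 and 147 CPM in macrophages and 2.60 and 51.2 CPM in stromal barcodes, WT before HFD).

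Lists in stromal barcodes shared this pattern. Of 6 MHC class II genes all 6 were at least 2-fold higher in HFD (median log2 ratio 2.08, or 1.13 after subtraction), with Cd74, the class II chaperone, at 303 CPM in WT and 1179 CPM in HFD (log2 ratio 1.96). Of 21 lipid and lysosome genes of macrophages 14 were at least 2-fold higher and 0 lower (median 1.29, or 0.89 after subtraction). Brown adipocyte genes were higher in both lineages as well, although these genes define another cell type. Of the 5 measured in stromal barcodes all 5 were higher and of the 4 in macrophages 3. Ucp1, the uncoupling protein of brown adipocytes, was at 0.196 and 28.7 CPM in stromal barcodes and 0.911 and 21.5 CPM in macrophages, WT before HFD, and at 160 CPM in HFD endothelial barcodes. The adipocyte marker list stood at 9.04 CPM in WT and 174 CPM in HFD over all barcodes. Genes of the mitochondrial genome were higher with the mitochondrial share of the libraries, with 13 of 13 at least 2-fold higher in stromal barcodes and 4 of 13 in macrophages. The part of adipocyte RNA in these results was not tested.

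Among the genes lower in both lineages, the heat-shock genes Hspa1b and Hspa1a ranked first. Heat-shock genes encode chaperones that refold proteins and are induced within minutes by heat and other stress, tissue digestion included. Of 11 measured in macrophages 8 were at least 2-fold lower in HFD and 0 higher, and of 12 in stromal barcodes 7 and 0. Hspa1b (protein-coding, chromosome 17, 34956436 to 34959238, minus strand), the inducible HSP70, was at 5551 CPM in WT and 27.9 CPM in HFD (log2 ratio -7.63, 95% interval -7.80 to -7.47) in macrophages and 2864 CPM in WT and 58.6 CPM in HFD (log2 ratio -5.61, 95% interval -5.73 to -5.49) in stromal barcodes. Its neighbour Hspa1a was at 3877 CPM in WT and 61.0 CPM in HFD (log2 ratio -5.99) and 2331 CPM in WT and 83.7 CPM in HFD (log2 ratio -4.80). Hspb1, the small chaperone HSP27, was at 1437 CPM in WT and 34.9 CPM in HFD (log2 ratio -5.36) in macrophages, and Hsph1, which recharges HSP70, at 836 CPM in WT and 61.8 CPM in HFD (log2 ratio -3.76). The difference was broad over cells, as 82.0% of WT and 3.44% of HFD macrophages held a thinned UMI of Hspa1b, and 57.8% and 5.36% of stromal barcodes. Without the 2-fold limit, all 11 measured in macrophages and 11 of 12 in stromal barcodes were lower in HFD. The exception was Dnaja1, with a log2 ratio of 0.01 in stromal barcodes. In db/db 16w endothelial barcodes Hspa1b stood at 3880 CPM, against 279 CPM in HFD endothelial barcodes.

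Promoters of 4 heat-shock genes are shown, from RefSeq with the same build and window, because these genes ranked among the 8 named as lower in both lineages and each window holds a heat-shock element. The capitals mark the letters GAANNTTC or TTCNNGAA, both their own reverse complements, with overlapping matches run together. The windows are chr17:34972107-34972406 for Hspa1a (minus strand), chr17:34959189-34959488 for Hspa1b (minus strand), chr5:135887669-135887968 for Hspb1 (plus strand) and chr5:149636287-149636586 for Hsph1 (minus strand).
Hspa1a: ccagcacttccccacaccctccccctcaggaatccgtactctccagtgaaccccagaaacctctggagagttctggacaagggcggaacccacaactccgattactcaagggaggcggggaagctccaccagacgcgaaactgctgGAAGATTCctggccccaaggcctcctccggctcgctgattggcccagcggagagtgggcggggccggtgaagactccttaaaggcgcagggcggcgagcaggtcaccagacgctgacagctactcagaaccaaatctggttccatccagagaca
Hspa1b: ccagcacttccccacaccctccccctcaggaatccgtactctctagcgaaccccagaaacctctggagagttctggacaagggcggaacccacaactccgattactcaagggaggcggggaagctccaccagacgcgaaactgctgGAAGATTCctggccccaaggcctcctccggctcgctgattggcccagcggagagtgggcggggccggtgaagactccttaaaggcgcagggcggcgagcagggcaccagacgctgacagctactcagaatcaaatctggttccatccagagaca
Hspb1: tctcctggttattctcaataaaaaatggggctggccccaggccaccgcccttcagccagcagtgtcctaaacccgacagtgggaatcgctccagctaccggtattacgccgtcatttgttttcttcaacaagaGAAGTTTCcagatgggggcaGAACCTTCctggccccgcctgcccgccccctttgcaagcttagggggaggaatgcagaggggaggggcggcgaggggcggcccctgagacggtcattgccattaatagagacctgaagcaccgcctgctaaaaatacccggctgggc
Hsph1: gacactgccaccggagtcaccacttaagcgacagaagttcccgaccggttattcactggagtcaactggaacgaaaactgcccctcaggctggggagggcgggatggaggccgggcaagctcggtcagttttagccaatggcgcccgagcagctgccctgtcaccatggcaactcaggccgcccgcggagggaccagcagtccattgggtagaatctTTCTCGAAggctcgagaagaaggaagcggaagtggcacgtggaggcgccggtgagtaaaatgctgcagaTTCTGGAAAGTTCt
The first match lay 104 bases before the start of both Hspa1a and Hspa1b, 117 before that of Hspb1 and 33 before that of Hsph1. The element occurred in 8 of the 13 promoters that the table holds for heat-shock genes and in 15.1% of all promoters. For comparison, the E-box CACGTG, which is its own reverse complement, occurred in 3 of 23 promoters of lipid and lysosome genes (those of Ctsd, Ctsl and Plin2) and in 7.15% of all promoters.

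Immediate-early genes, which answer within minutes to stimuli, did not differ alike in both lineages. In macrophages 12 of 18 were at least 2-fold lower and 0 higher, with Zfp36, which destabilises cytokine mRNA, at 5349.8 CPM in WT and 420.3 CPM in HFD (log2 ratio -3.67) and Jun at 4031 CPM in WT and 446 CPM in HFD (log2 ratio -3.18). In stromal barcodes 4 were lower and 3 higher, with Zfp36 at 1628 CPM in WT and 324 CPM in HFD (log2 ratio -2.33) but Egr3 at 13.5 CPM in WT and 112 CPM in HFD (log2 ratio 3.06) and Fosb at 474 CPM in WT and 1574 CPM in HFD (log2 ratio 1.73), while Jun had a log2 ratio of 0.04. Other genes lower in both lineages were Socs3, a brake on cytokine signals (322 CPM in WT and 28.0 CPM in HFD (log2 ratio -3.52) in macrophages and 698 CPM in WT and 86.1 CPM in HFD (log2 ratio -3.02) in stromal barcodes), and the clock gene Nr1d1 (85.6 CPM in WT and 6.27 CPM in HFD (log2 ratio -3.77) and 149 CPM in WT and 19.9 CPM in HFD (log2 ratio -2.91)). Ptgs2 was at 316 CPM in WT and 37.6 CPM in HFD (log2 ratio -3.07) in stromal barcodes. Tpm3-rs7, a copy of the tropomyosin gene Tpm3, was at 171 and 7.93 CPM in macrophages, where Tpm3 itself was at 165 and 448 CPM. As 48.1% of 50-base windows at the end of Tpm3-rs7 occurred in Tpm3, both values are uncertain.

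The remaining lists are given mainly by their counts. In stromal barcodes 4 of 14 interferon response genes were at least 2-fold lower and 0 higher, a median log2 ratio of -0.52 against -2.40 in macrophages, and the difference between lineages was not tested. Unfolded protein response genes, which answer to misfolded protein in the endoplasmic reticulum, had 4 of 14 higher and 0 lower in stromal barcodes (median 0.61) and 1 higher and 2 lower in macrophages (median 0.17). Matrix proteases and their inhibitors had 4 of 13 higher and 2 lower in stromal barcodes, where stromelysin Mmp3 was at 156 CPM in WT and 706 CPM in HFD (log2 ratio 2.18) and the membrane protease gene Adam12 at 11.3 CPM in WT and 114 CPM in HFD (log2 ratio 3.34). Cholesterol synthesis genes had 4 of 8 higher and 0 lower, and glycolysis genes 2 of 12 and 0. Nuclear-retained RNAs had 0 of 6 past 2-fold in stromal barcodes and 2 of 5 lower in macrophages.

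**Figure D5:**
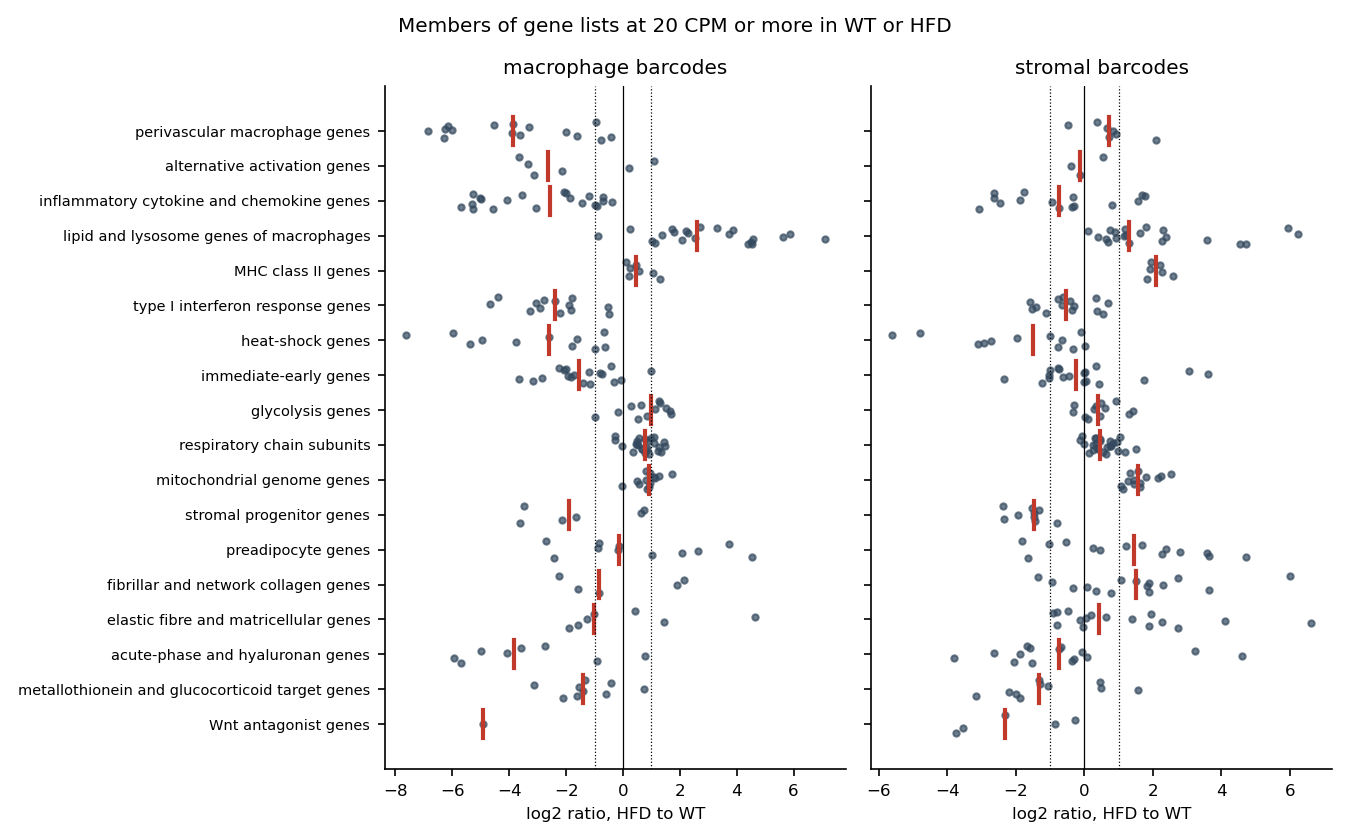
Log2 ratio of HFD to WT (x axis) of each gene at 20 CPM or more (points) and the median (red bar) for 18 gene lists, in macrophages (left) and stromal barcodes (right), 1 library a side, with dotted lines at 2-fold. In macrophages the perivascular median (-3.85) and the lipid and lysosome median (2.62) lie on opposite sides, and in stromal barcodes the progenitor list (-1.47) lies opposite to the collagen list (1.50).

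The 1323 HFD endothelial barcodes could be described only beside the 1442 of db/db 16w, the other library with many. Both carried the genes of capillaries that handle lipid. Cd36 was at 5430 CPM in HFD and 5010 CPM in db/db 16w (log2 ratio 0.12, 0.09 to 0.15), and Rbp7, a retinol carrier of capillary endothelium, at 1156 and 769 CPM. Fabp4 was at 36850.5 and 62415 CPM. The homeobox gene Meox2, which governs fatty acid transport in capillaries, was at 215 and 72.3 CPM (1.57, 1.33 to 1.82). Genes of arteries and veins ranged widely in HFD. The arterial genes Sox17 and Efnb2 were at 207 and 192 CPM and the venous regulator gene Nr2f2 at 116 CPM, whereas Vwf was at 26.7 CPM, Ackr1, a marker of venules, at 1.36 CPM and the inducible adhesion molecule gene Sele at 0.151 CPM. Angiogenic genes differed gene by gene: Flt1, a decoy receptor for vascular endothelial growth factor, was at 1169 and 558 CPM, and Dll4, the Notch ligand of tip cells, at 57.0 and 162 CPM. Egr1 was at 4406 and 772 CPM. Brown adipocyte RNA differed between both libraries here too, with Cox8b at 221 and 1.84 CPM, while mural markers stood at 731 CPM in HFD endothelial barcodes. The barcodes of db/db 16w were shallower, with a median of 1048 UMIs against 4531, and no WT level exists to place either library against.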

How the data were processed

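Single-cell suspensions of the SVF were made into 10x Genomics libraries, and the authors aligned reads to mm10 and counted UMIs with Cell Ranger. The processing notes name version 7.1.0 and the file headers 6.0.0. The deposited values are raw UMI counts per gene and barcode for 32285 genes. Each of the 4 samples is 1 library of 1 group, as the labels give it. UMIs were summed per library and lineage and scaled to CPM, and log2 ratios of HFD to WT carry exact conditional binomial 95% intervals. Shares carry Clopper-Pearson intervals. A side at 0 was set to 3 counts for ratios. No test was run, and no low-level filter other than 50 CPM (genes) or 20 CPM (lists) was applied. The depth was 7687737 UMIs over WT and 10848275 over HFD macrophages, and 35800650 and 10282800 over stromal barcodes. PCR copies are removed by UMIs, and intervals cover counting error only. Doublets were ranked with Scrublet in scanpy 1.11.5 at 0.8% per 1000 barcodes and kept, with their removal as an alternative.

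Genes were named by a rule: per lineage the 12 highest and 12 lowest ratios by the interval bound nearest 0, among genes with 50 CPM and 20 UMIs in either library that were highest in that lineage where they were higher, without gate markers or mt-, Rpl, Rps, Gm and Rik genes. To these came 8 shared genes in each direction, up to 4 genes a list with the widest ratios, and Cd36, Cd9, Trem2, Tgfb1 and Aldh1a1, which the study names. Further members of the lists, such as Col1a2, Mrc1 and Apoe, were chosen after their values were seen. The rule could not be applied to endothelial barcodes, as WT held 7. Lineage members and gene lists were chosen with earlier results of these data known. Ratio and interval code was tested on simulated counts. Promoters were RefSeq entries matched by symbol, and motifs were searched on both strands. Tools were Python 3.11.15, numpy 2.4.6, scipy 1.17.1, pandas 2.3.3 and matplotlib 3.10.9. Alternatives covered the gate, the mitochondrial limit, doublets, thinning, scaling, centring, pseudocount and level filters.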

Additional observations from a re-analysis of the deposited data

Results flagged for a closer look

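Among named genes and list members, 5 were at least 2-fold higher in HFD in one lineage and at least 2-fold lower in the other. Each lineage is 1 library a side, so the difference between lineages was not tested. Thbs1, thrombospondin 1, had a log2 ratio of -1.89 in macrophages (127 and 34.1 CPM, WT before HFD here and below) and 2.74 in stromal barcodes (32.8 and 220.2 CPM). Vcam1, an adhesion molecule for leukocytes, was at -1.85 (158 and 43.8 CPM) and 2.28 (33.2 and 161 CPM). Axl, a receptor for the clearance of dead cells, was at 1.50 in macrophages (50.6 and 143 CPM) and -1.43 in stromal barcodes (498 and 185 CPM). The chemokine gene Ccl6 was at -1.19 (3248 and 1427 CPM) and 1.69 (50.5 and 163 CPM), and its HFD stromal level was 11.4% of its HFD macrophage level. Hbb-bs was at -4.49 (234 and 10.4 CPM) and 5.0 (1.76 and 56.5 CPM), and the erythroid marker list moved with it, from 420 to 19.6 CPM in macrophages and from 3.38 to 95.4 CPM in stromal barcodes. Hbb-bs shares 64.7% of its last 50-base windows with Hbb-bt, so its own level is uncertain.

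Barcodes outside the lineages held further signal in HFD above WT. In the barcodes with no lineage, mural markers stood at 237 CPM in HFD and 8.94 CPM in WT, adipocyte markers at 109 and 8.94 CPM, and muscle markers at 23.6 and 5.37 CPM. Of the HFD barcodes that failed the mitochondrial limit and no other, 19.2% were gated as endothelial.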

How the results depend on the processing

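No paired analysis was possible because each group is 1 library, and for the same reason no replicate could be left out. The macrophage share difference of 7.97 percentage points reversed to -1.36 without the mitochondrial limit, and was 10.6 with a limit of 10%, 9.55 with the looser gate, 11.0 with the check markers as gate and 3.53 after thinning. The stromal difference of -42.0 was -50.0 without the limit, -36.1 with 10%, -39.4 with the looser gate and -39.1 with the check markers. The endothelial difference of 24.1 was 12.2 with the stricter gate, 28.0 with the looser one, 25.3 with check markers, 20.6 without the limit, 17.6 with 10%, 26.0 without doublets and 17.9 after thinning. The macrophage share of macrophage and stromal barcodes differed by 24.9 points, by 29.3 with check markers, 22.4 with a limit of 10% and 21.0 after thinning. Of the counts past 2-fold, 526 higher in macrophages became 327 after centring, 1214 at 10 CPM and 2839 with no filter, and 427 lower became 888 and 2105 under those filters. In stromal barcodes 362 higher became 197 after subtraction, 1085 at 10 CPM and 4349 with no filter, and 342 lower became 673 and 1508. Filters at lower levels test more genes. A list median has no interval of its own, so its range was set by the median half-width of its members' single-gene intervals. Of 598 list medians under alternatives, 587 kept their direction, 3 of which fell under 2-fold. Another 5 changed sign from a main value whose range, set in this way, held 0. The other 6, whose range did not hold 0, are called reversed: unfolded protein response genes in macrophages after centring (-0.061 from 0.17), MHC class II in macrophages with a limit of 10% (-0.073 from 0.44), nuclear-retained RNAs in stromal barcodes after thinning (-0.18 from 0.18) or by mean barcode CPM (-0.24), and cholesterol efflux (-0.16 from 0.26) and TGF-β genes (-0.11 from 0.21) in stromal barcodes after subtraction. For named genes 77 ratios were followed, each of 1 gene in 1 lineage, so that shared genes count in both lineages. Of their 924 values 923 kept their sign, 1 of which fell under 2-fold. Stromal Atp6v0d2 took the opposite sign after subtraction (-1.54 from 5.49). Where subtraction took a level to 0 it was set to 3 counts, so the sign then holds no direction. This applied to Atp6v0d2 in HFD stromal barcodes and to Trem2 in the stromal barcodes of both libraries, whose value counts among those kept. The cause of these changes was not tested. Depth limits rare transcripts: 1 UMI was 0.130 CPM over WT macrophages.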

Other observations

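The barcodes with no lineage differed between both libraries in blood cells too. In WT, neutrophil markers (S100a8, S100a9, Retnlg, Csf3r and Cxcr2) stood at 2059 CPM and erythroid markers at 2406 CPM, against 14.5 and 15.4 CPM in HFD. B cell markers were at 188 CPM in WT and 10.9 CPM in HFD, and T cell markers at 241 and 112 CPM. Schwann cell markers were at 100.2 and 90.0 CPM (log2 ratio -0.15, -0.59 to 0.30). These are sums over 183 WT and 492 HFD barcodes.

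A few genes with a near-copy were almost absent from the HFD library while the copy was not. Gm10260, a copy of the ribosomal protein gene Rps18, was at 553 and 0.681 CPM in WT and HFD stromal barcodes and at 477 and 288 CPM in db/db 8w and 16w, while Rps18 was at 705 and 1206 CPM in WT and HFD. C1rb, at 228 and 0.389 CPM in WT and HFD, stood at 94.8 and 51.2 CPM in the db/db libraries. These genes were picked after their values were seen, and the cause was not tested.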
